A study of Mus musculus with 6 samples.

Results

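Tight junction genes of the future blood-testis barrier were examined in fetal mouse testes in which NOTCH1 signalling was held on in Sertoli cells. The set holds 9 genes, fixed by name: the claudins Cldn1, Cldn3, Cldn11 and Cldn12, occludin (Ocln), the junctional adhesion molecules F11r and Jam2, and the scaffold genes Tjp1 and Tjp3. Every probe whose annotated symbol, current or older, is one of these names was taken, which gave 15 of the 45281 probes of the array, and 0 of them were found only through an older symbol. The annotation names 19057 genes in all. Jam2 has 6 probes, Tjp3 has 2 and each of the other 7 genes has 1.

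Overexpressors were Amh-cre;RosaNICD/+ fetuses, in which the Amh-cre transgene expresses Cre in Sertoli cells and so switches on, from the Rosa26 locus, the intracellular domain of NOTCH1, a form of the receptor that signals without ligand. Controls were RosaNICD/+ littermates without Amh-cre, so that all 6 fetuses carried 1 copy of the conditional allele and only the overexpressors carried the Cre transgene, whose own effect cannot be told apart from that of active NOTCH1. All were on a mixed B6/CD1 background at embryonic day 14.5. Both testes of 1 fetus, dissected away from the mesonephroi, made 1 sample. A litter gave 1 overexpressor and 1 control, and 3 litters were used (n = 3 separate animals per group).

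Tight junctions seal the space between neighbouring epithelial cells. Claudins form the strands, occludin and the junctional adhesion molecules lie in the membrane beside them, and the zonula occludens proteins encoded by Tjp1 and Tjp3 tie them to actin. In the testis the seal lies between Sertoli cells and divides the seminiferous epithelium into a basal and an inner compartment. In mice this blood-testis barrier closes after birth, when the first germ cells pass through meiosis, so the fetal testis studied here has no such barrier yet. Male mice without Cldn11 are sterile, and their Sertoli cells lack tight junction strands, and Cldn3 is an androgen-dependent claudin of the adult barrier.

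Across the whole comparison 113 of 19889 tested probes changed at an adjusted p under 0.05 in limma (0.568%), and 157 with the dam as a block (0.789%). The first count was 32 without overexpressor 1, 68 without overexpressor 2, 49 without control 1, 54 without control 2 and 60 without control 3. Tested probes are those with a detection p under 0.05 on at least 3 of 6 arrays, a value that compares the probe with negative controls on the same array. The NOTCH-induced repressor gene Hey1 rose, with a log2 fold change of 1.27 ± 0.15 (SE) and an adjusted p of 0.00878 (0.0527 without overexpressor 1). The cyclin D1 gene Ccnd1 rose as well (1.66 ± 0.16, adjusted p = 0.00476), and the value for Notch1 itself was 0.81 ± 0.19 (adjusted p = 0.162). Between 43.0 and 44.8% of probes were detected per array. Of the Sertoli cell markers 13 of 13 with a probe passed the detection filter, as did 5 of 5 fetal Leydig cell markers and 11 of 12 germ cell markers.

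Of the 9 tight junction genes, 6 were measurable and 3 were not. Cldn1, Cldn11, Cldn12, F11r, Tjp1 and 3 of the 6 Jam2 probes passed the detection filter, 8 probes in all. None of the 8 passed the test at an adjusted p under 0.05 (0 of 8, against 0.568% of all tested probes), and 2 of them, Cldn11 and the second Jam2 probe, had an unadjusted p under 0.05, which 9.50% of all tested probes had. One probe, for Cldn11, was higher in every overexpressor than in any control, where 7.57% of all tested probes were. For 3 probes, for Cldn1, Cldn12 and Jam2, every overexpressor was lower than every control, where 7.01% of all tested probes were. By the brightest probe of each gene the 6 genes had a median log2 fold change of -0.19, against -0.0032 over 10999 genes tested, and a range of -0.25 to 1.08. Cldn11 was the 1 gene above 0, and the other 5 lay between -0.25 (F11r) and -0.01 (Tjp1).

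**Figure D1:**
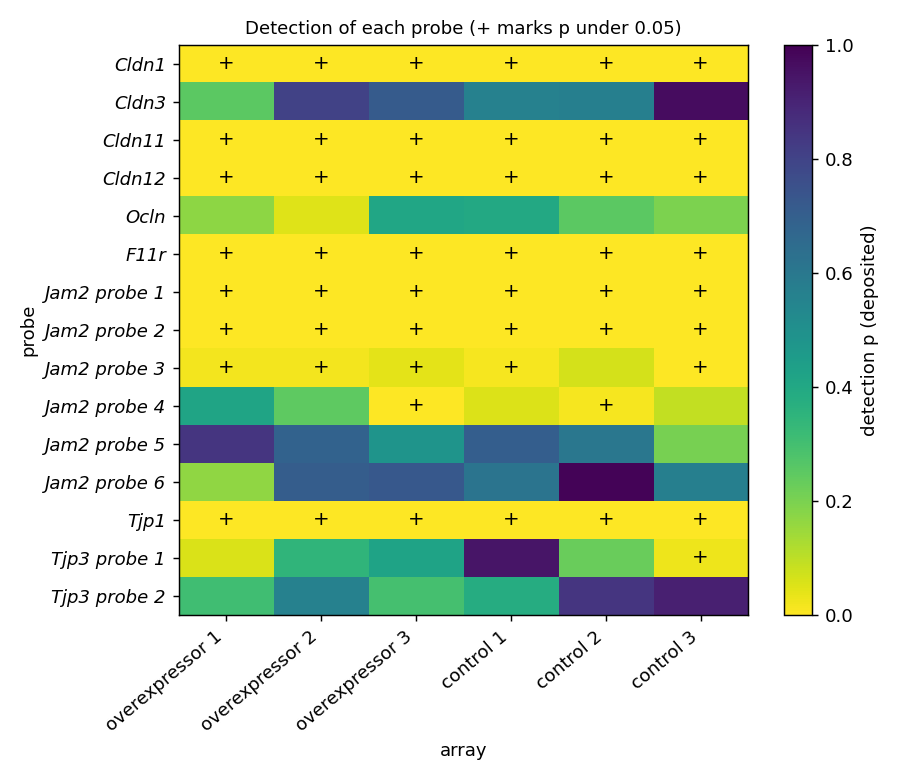
Detection p-values of the 15 probes (rows) on the 6 arrays (columns, overexpressors on the left), with a plus where the p is under 0.05. Cldn3, Ocln, the second Tjp3 probe and the 2 dimmest Jam2 probes have no plus on any array, and the first Tjp3 probe has 1, on control 3.

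Among the strand-forming claudins, Cldn11 was the member with the largest difference. Its only probe, ILMN_1246139, had a log2 intensity of 12.64, 12.64 and 11.95 in overexpressors 1 to 3, against 11.14, 11.28 and 11.57 in controls 1 to 3. All 3 overexpressors were above all 3 controls, and overexpressor 3 was the lowest of its group while its littermate was the highest control. On the deposited scale, before any normalization, the mean bead brightness was 7641, 6220 and 3797 in overexpressors 1 to 3, against 2517, 2498 and 2662 in controls 1 to 3. The 3 controls lay close together and the overexpressors were spread over a wide range. The probe was read from 29 to 49 beads per array with a bead standard error of 3.13 to 6.41% of the signal.

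The Cldn11 log2 intensity averaged 12.41 ± 0.40 in overexpressors and 11.33 ± 0.22 in controls (SD, n = 3 each), a log2 fold change of 1.08 ± 0.21 (SE), or 2.12-fold with a 95% interval of 1.50 to 2.97. It did not pass (adjusted p = 0.0945 in limma, unadjusted p = 0.000874). Among all tested probes 0.92% had a smaller unadjusted p. Within dams the overexpressor minus its control littermate was 1.49, 1.36 and 0.39 on the log2 scale in dams 1 to 3, so that the sign was the same in each litter and the size in dam 3 was well below that in the others. Without overexpressor 3 the log2 fold change was 1.31 and passed (adjusted p = 0.0267). With any other single array left out it lay between 0.97 and 1.20 and did not pass (adjusted p from 0.146 to 0.325).

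Whether Cldn11 passed depended on how the arrays were processed. The log2 fold change was 1.06 without background correction (adjusted p = 0.0409), 1.07 with an offset of 50 in place of 16 (adjusted p = 0.0283) and 1.06 in the authors' processed table (adjusted p = 0.0295). A variance prior that follows the intensity gave an adjusted p of 0.0147 and array weights gave 0.0489. Median scaling (1.14, adjusted p = 0.0643), the stricter detection filter (adjusted p = 0.0746) and no detection filter (adjusted p = 0.239) left it on the other side of the threshold. So did the dam as a block, which takes account of the litters (adjusted p = 0.125). Over all 15 alternatives, arrays left out included, the log2 fold change stayed between 0.97 and 1.31, and 6 of the 15 passed.

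**Figure D2:**
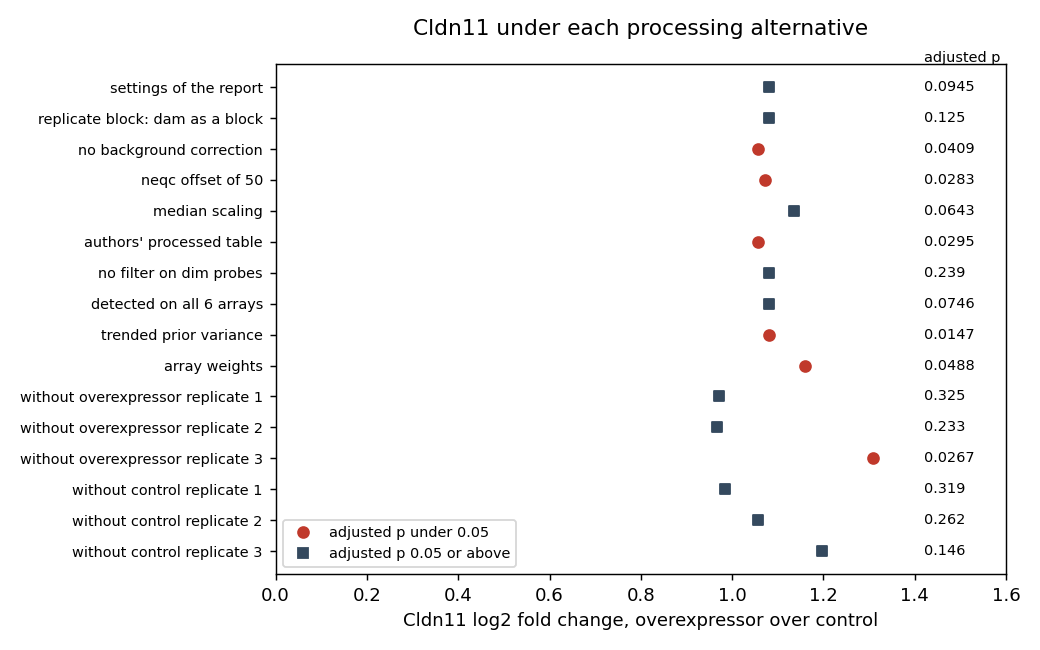
Log2 fold change of Cldn11, overexpressor over control (horizontal axis), under the settings of the report and 15 alternatives (rows), with the adjusted p at the right. All values lie between 0.97 and 1.31, and 6 alternatives (red circles) are past the threshold.

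The promoter of Cldn11 is shown because this gene had the largest difference of the set. The sequence is RefSeq's, from 250 bases before to 50 bases after the annotated gene start, on the plus strand at chr3:31149670-31149969 of GRCm38.p6. It was searched on both strands for 4 short motifs: TGGGAA, the core that the NOTCH cofactor RBPJ binds, AACAAT of SOX factors, CCAAT of NF-Y and GGGCGG of Sp1. Capitals mark the matches.
Cldn11 promoter: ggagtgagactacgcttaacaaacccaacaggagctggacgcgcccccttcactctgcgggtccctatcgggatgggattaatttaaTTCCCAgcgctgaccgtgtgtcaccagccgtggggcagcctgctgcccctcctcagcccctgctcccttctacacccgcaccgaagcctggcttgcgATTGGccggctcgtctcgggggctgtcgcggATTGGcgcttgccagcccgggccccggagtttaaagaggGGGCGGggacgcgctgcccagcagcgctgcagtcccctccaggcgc
The RBPJ core was present 1 time, on the minus strand (read here as TTCCCA), its first base at position -163 relative to the gene start. The NF-Y core was present 2 times, at -66 and -35 on the minus strand (ATTGG), and the Sp1 core 1 time, at 4, on the plus strand. The SOX core was not in this window, and no match overlapped another. Such short words are common: of 32851 promoter windows of the same length, 25.6% held the RBPJ core, 10.7% the SOX core, 37.4% the NF-Y core and 35.7% the Sp1 core. The table holds 12 windows for 8 of the 9 genes, some genes having several that can overlap, and Jam2 was not matched. The RBPJ core was in 2 of the 12, those of Cldn11 and of F11r, whose log2 fold change was -0.25.

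The other claudins of the set were lower or not measurable. Cldn1, best known from the barrier of the skin, had log2 intensities of 6.66, 6.50 and 6.73 in overexpressors 1 to 3, against 6.78, 7.06 and 6.78 in controls 1 to 3. The groups did not overlap, but the highest overexpressor and the lowest control differed by less than the spread within either group. Within dams 1 to 3 the difference was -0.12, -0.56 and -0.05, so that it was largest by far in dam 2. On the deposited scale the overexpressor over its littermate was 1.04, 0.82 and 1.02, above 1 in dams 1 and 3. The log2 fold change was -0.24 ± 0.14 (SE; 95% interval -0.57 to 0.08; adjusted p = 0.656). Cldn12, a claudin of gut and other epithelia, had log2 intensities of 8.23, 8.29 and 8.20 in overexpressors 1 to 3, against 8.56, 8.52 and 8.34 in controls 1 to 3. Overexpressors were again all below controls, and the 3 overexpressors lay close together (SD 0.04, n = 3) and the controls less so (SD 0.12, n = 3). Its log2 fold change was -0.23 ± 0.13 (SE; 95% interval -0.52 to 0.06; adjusted p = 0.632). Both differences kept their sign under every alternative, and neither passed under any. For both genes a difference as large as that seen for Cldn11, in either direction, lies outside the interval.

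Cldn3 was not well above background on any array, with detection p-values of 0.25 or more and a raw brightness of 84.3 to 116.6. No fold is given for it, and a level below this limit is not the same as absence. Ocln, which encodes the strand-associated protein occludin, was likewise not well above background on any array. Its lowest detection p was 0.0502, and its raw brightness was 99.3 to 119.5. With the detection filter removed, neither passed in limma (adjusted p = 0.943 for Cldn3 and 0.909 for Ocln), and at this brightness that does not show equal levels.

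The junctional adhesion molecules are immunoglobulin-like proteins of the membrane. F11r, which encodes JAM-A, had log2 intensities of 8.16, 7.95 and 8.67 in overexpressors 1 to 3, against 8.26, 8.75 and 8.55 in controls 1 to 3. The groups overlapped, and the littermates of dam 3 differed in the opposite direction to those of dams 1 and 2. Its log2 fold change was -0.25 ± 0.21 (SE; 95% interval -0.74 to 0.23; adjusted p = 0.784), and it was -0.10 without overexpressor 2, -0.46 without overexpressor 3, -0.39 without control 1 and -0.14 without control 2. Jam2 encodes JAM-B, which in the mouse testis lies on Sertoli cells, and its probes differed among themselves. The brightest, ILMN_2592881, had log2 intensities of 7.69, 6.78 and 7.61 in overexpressors 1 to 3, against 7.74, 7.35 and 7.40 in controls 1 to 3, with a log2 fold change of -0.14 ± 0.25 (SE; adjusted p = 0.914). These values overlapped, and without overexpressor 2 the sign turned (log2 fold change 0.15).

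The second Jam2 probe, ILMN_1227559, had log2 intensities of 6.72, 6.15 and 6.52 in overexpressors 1 to 3, against 7.39, 7.02 and 7.29 in controls 1 to 3. Every overexpressor was below every control, and the within-dam differences were -0.67, -0.87 and -0.78 on the log2 scale. The log2 fold change was -0.77 ± 0.18 (SE), or 0.585-fold with a 95% interval of 0.439 to 0.779. It did not pass (adjusted p = 0.174 in limma, and 0.0523 with the dam as a block), nor under any alternative, and without background correction its size shrank to -0.44. Both probes are annotated to the same Jam2 transcript, and which part of it each one reads is not known here. The log2 ratio of the brightest over the second probe was 0.97, 0.63 and 1.09 in overexpressors 1 to 3, against 0.35, 0.33 and 0.11 in controls 1 to 3, a comparison chosen after the values were seen. The difference of the means was 0.63, and the two-sided exact permutation test gave p = 0.1, the smallest that 3 against 3 arrays allow. That test leaves out the pairing by dam and could not have reached 0.05, so no conclusion is drawn from it. Probe ILMN_2790839, the dimmest of those tested, was near background (log2 intensity 5.09 ± 0.06 in overexpressors and 5.28 ± 0.42 in controls, SD, n = 3 each) and had a log2 fold change of -0.19 ± 0.20 (SE; adjusted p = 0.843), which turned to 0.029 without control 3. Of the other 3 Jam2 probes 1 was detected on 2 arrays, overexpressor 3 and control 2, and the rest on 0.

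Of the scaffold genes, Tjp1, which encodes ZO-1, was measured well and Tjp3, which encodes ZO-3, was not. Tjp1 had log2 intensities of 9.03, 8.78 and 8.32 in overexpressors 1 to 3, against 8.79, 8.73 and 8.63 in controls 1 to 3. The overexpressors lay on both sides of the controls and were more widely spread (SD 0.36 in overexpressors and 0.08 in controls, n = 3 each). Its log2 fold change was -0.01 ± 0.19 (SE; 95% interval -0.44 to 0.42; adjusted p = 0.992), a value whose sign turned under 4 alternatives. The 2 Tjp3 probes were not well above background in any overexpressor, and only 1 of them passed the detection threshold in a control, control 3. For that probe the log2 intensities were 4.88, 4.53 and 4.49 in overexpressors 1 to 3, against 4.29, 4.61 and 5.18 in controls 1 to 3, so that the littermates of dam 1 ran the opposite way to those of dam 3, and no fold is given.

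**Figure D3:**
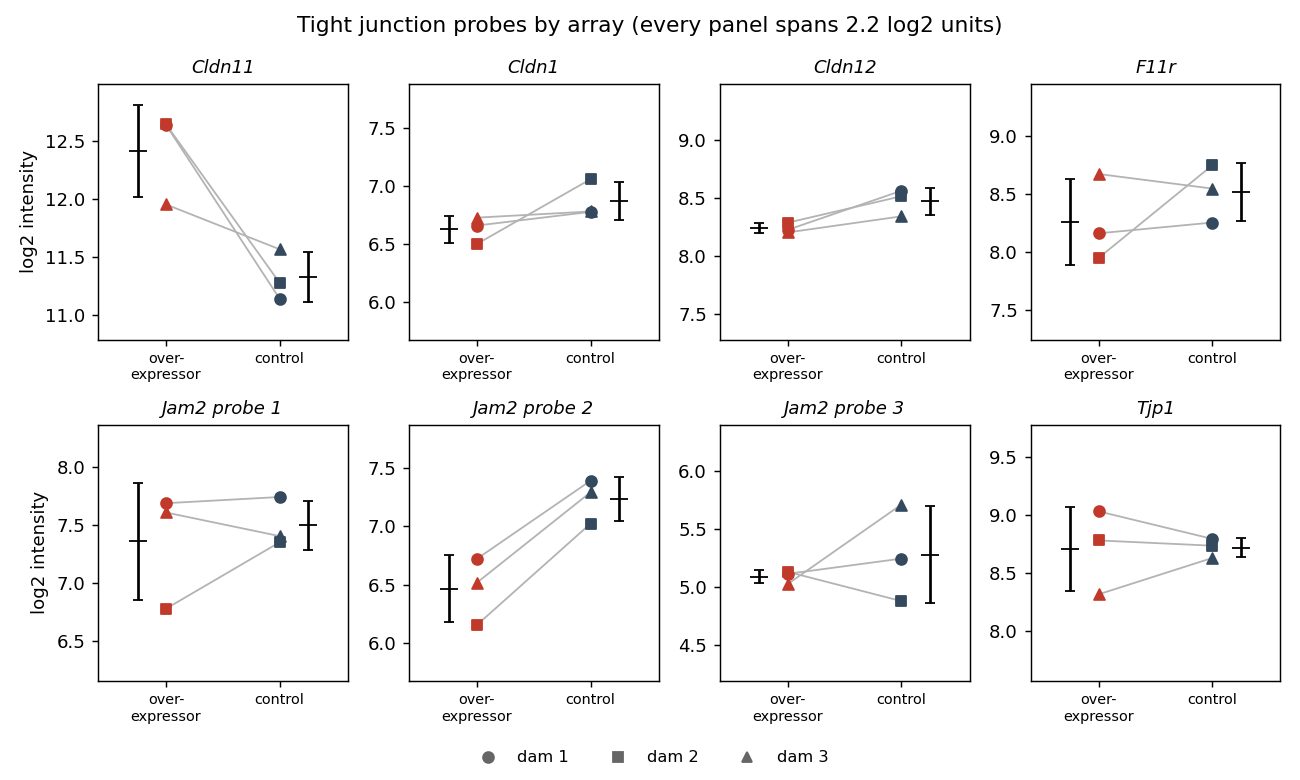
Log2 intensity (vertical axis) of the 8 tested probes by array, overexpressors in red at the left of each panel and controls in dark blue at the right, with lines joining littermates and bars giving mean ± SD (n = 3). The Cldn11 lines all run down toward the control side and those of the second Jam2 probe run up nearly in parallel. Those of Tjp1 draw together toward the control side without crossing.

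**Figure D4:**
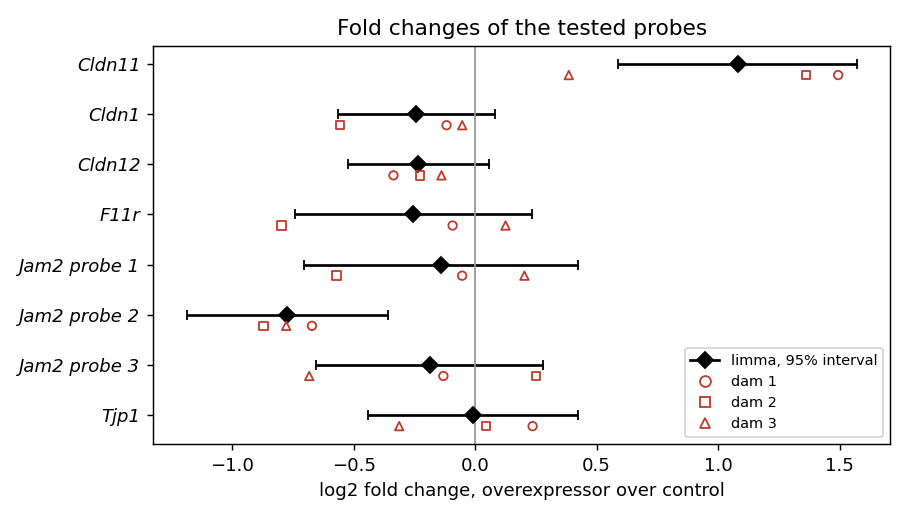
Log2 fold change (horizontal axis) of the 8 tested probes with the 95% interval of the limma fit (black), and the difference between littermates in each dam (red open symbols). The intervals of Cldn11 and the second Jam2 probe leave out 0 before adjustment for the number of probes tested, and the other 6 include it.

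Markers of Sertoli cells and of other cell types were read beside these values. In whole testes fewer cells of a type and less RNA per cell cannot be told apart. Of 13 Sertoli cell markers 9 were lower and 4 higher, and their median log2 fold change was -0.31. Their summed linear intensity was 21119 to 25201 in overexpressors and 16246 to 19808 in controls. The direction of that sum rested on the Sertoli cystatin gene Cst9, by a comparison added after the values were seen: without it the other 12 markers summed to 9088, 6667 and 9840.3 in overexpressors 1 to 3, against 9569.7, 8400.2 and 10983 in controls 1 to 3, lower in the overexpressor of each dam. Cst9 rose, with a log2 fold change of 0.83 ± 0.13 (SE; adjusted p = 0.0358, and from 0.0897 to 0.161 with 1 array left out). Cbln4, which encodes a secreted cerebellin, fell, with a log2 fold change of -1.20 ± 0.20 (SE; adjusted p = 0.0474, and from 0.0588 to 0.201 with 1 array left out, when it did not pass). With the dam as a block Cbln4 (adjusted p = 0.0267), Hsd17b3 (-0.999, adjusted p = 0.0247), a 17-beta-hydroxysteroid dehydrogenase gene, and Sox8 (-0.95, adjusted p = 0.0271), a relative of Sox9, passed as lower, and without it the adjusted p was 0.0541 for Hsd17b3 and 0.0655 for Sox8. Most of the list lay on the side opposite to Cldn11, as did Amh at -1.24 ± 0.38 (SE), while the Sertoli fate gene Sox9 was at 0.15 ± 0.18 (SE). Neither passed, though without overexpressor 3 Amh stood at -1.71 and did (adjusted p = 0.0277). Of 11 germ cell markers 9 were lower, and their summed intensity was 11703 to 15259 in overexpressors and 15157 to 21054 in controls. The fall was uneven among them. Nanos2 stood at -2.45, Nanos3 at -1.17, Dnd1 at -1.06 and Dppa3 at -0.78, and Tdrd9 and Tdrd1 were lower as well. Ddx4 stood at -0.24, Pou5f1 at -0.16, Dazl at -0.05, Dppa5a at 0.02 and Sall4 at 0.08. None passed, but with the dam as a block Nanos2 (adjusted p = 0.0142), Tdrd9 (0.0221) and Dnd1 (0.0445) passed as lower. Of 7 mesonephros, duct and epithelial markers 6 were lower, with sums of 656 to 846 in overexpressors and 1129 to 1271 in controls. Their median log2 fold change was only -0.05, and none passed. Lhx1 stood at -1.38, Cdh1 at -0.93 and Krt8 at -0.43, while Krt18, Pax8 and Cdh16 lay between -0.05 and -0.02, and Krt7 at 0.25. Epcam, Krt19, Pax2, Emx2 and Wnt9b did not pass the detection filter. The endothelial markers, whose cells also build tight junctions, had overlapping sums of 5309 to 6630 in overexpressors and 5569 to 6359 in controls. The part of these shifts in the lower values of Cldn1, Cldn12 and Jam2, or in the higher one of Cldn11, was not tested.

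The rest of the junction machinery was taken from 4 lists with 85 genes, of which 78 had a probe and 48 passed the detection filter. Of these 48 genes 0 passed the test in limma (0.727% of all genes tested did), 29 were higher and 19 lower, and at an unadjusted p under 0.05 there were 4 higher and 1 lower, or 10.4%, against 9.46% of all genes tested. With the dam as a block 0 passed as well, and at an unadjusted p under 0.05 there were 5 higher and 4 lower, where 14.7% of all genes tested were past it. Among 6 measurable further claudins 5 were higher and 1 lower, and the median log2 fold change was 0.09. The members with the smallest unadjusted p were Cldnd1 (0.31 ± 0.16, SE), which encodes a claudin-domain protein, Cldn7 (0.22 ± 0.17) and Cldn9 (0.09 ± 0.13). Cldn7 stood at 0.10 without control 3, 0.38 without control 1 and 0.033 in the authors' processed table, and Cldn9 at 0.015 without control 2 and 0.0096 in that table. Cldn5, the claudin of endothelial cells, stood at -0.01 ± 0.17, a value whose sign turned under 5 of 15 alternatives.

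Of 16 other tight junction adaptors and membrane proteins 8 were higher and 8 lower, around a median of -0.02. Ildr2, an angulin of the corners where 3 cells meet, stood at 0.45 ± 0.16 (SE; adjusted p = 0.431), and the scaffold gene Magi1 at 0.22 ± 0.15. Patj, a scaffold that joins tight junctions to the Crumbs polarity complex, stood at -0.80 ± 0.49, and -0.25 without control 2, which had by far the highest value. Other probes of Patj stood at 0.16, 0.09 and -0.20, and those of Magi1 at 0.17 and -0.41, so that for both genes the probes differed in sign.

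Of 11 cell polarity genes 9 were higher and 2 lower, around a median of 0.17. Llgl2, a basolateral polarity gene related to the fly's lethal giant larvae, had log2 intensities of 8.59, 8.86 and 8.20 in overexpressors 1 to 3, against 7.50, 7.48 and 7.61 in controls 1 to 3. Overexpressors were all above controls, with overexpressor 3 the lowest of its group as for Cldn11. Its log2 fold change of 1.02 ± 0.18 (SE) did not pass (adjusted p = 0.0575), and it passed under 7 of 15 alternatives. Pard6g stood at 0.33 ± 0.12 and Pard3b at 0.26 ± 0.13, both members of the PAR complex that places the junction along the cell's side.

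Of 15 adherens junction and desmosome genes 7 were higher and 8 lower, around a median of -0.0026. Cdh1, which encodes E-cadherin, had log2 intensities of 6.49, 7.12 and 6.89 in overexpressors 1 to 3, against 7.70, 7.83 and 7.76 in controls 1 to 3. The groups did not overlap, and the log2 fold change of -0.93 ± 0.17 (SE) did not pass (adjusted p = 0.0764), though it did under 5 of 15 alternatives, while a dimmer second probe stood at 0.22 ± 0.25. Cdh1 is also one of the epithelial markers given above. Nectin2, whose protein holds Sertoli cells to each other and to germ cells, stood at 0.62 ± 0.14 (adjusted p = 0.169, and past the threshold under 3 of 15 alternatives). A second Nectin2 probe stood at 0.71 ± 0.19 and a dimmer one at 0.01 ± 0.21. Ctnna2 came next at -0.32 ± 0.16.

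**Figure D5:**
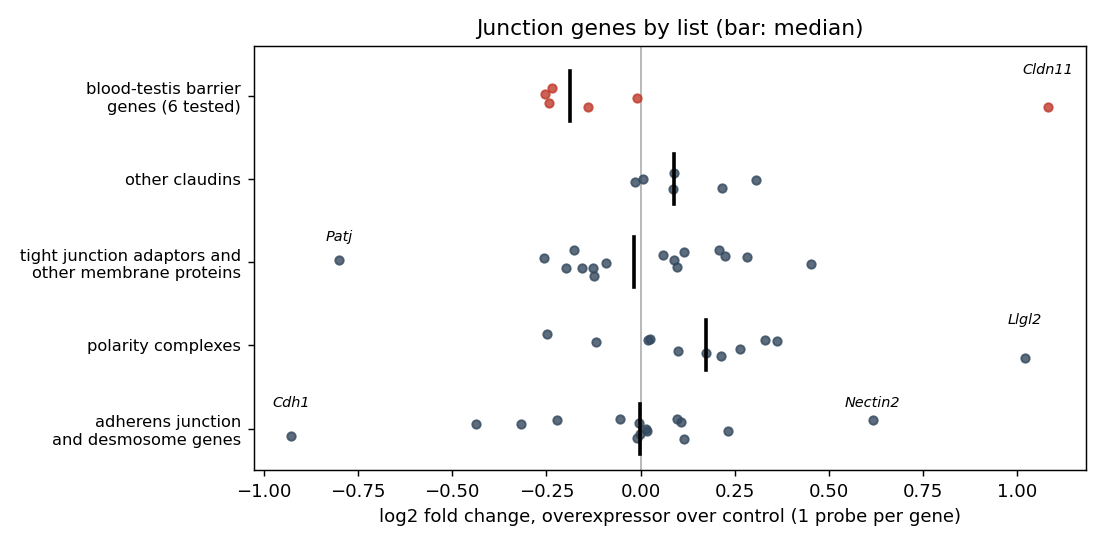
Log2 fold changes (horizontal axis, overexpressor over control, 1 probe per gene) of the 6 tested barrier genes and of 4 lists of other junction genes, each point a gene and each bar a list's median. List medians lie between -0.19 and 0.17, and Cldn11, Llgl2, Cdh1, Patj and Nectin2 stand farthest from 0.

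Genes whose log2 intensities over the 6 arrays ran most closely with those of the leading members are given as a description, since with 6 arrays many genes track any one probe. Among 10685 other named genes, 156 had a Pearson r of at least 0.9 with Cldn11. The closest were Dpy30 (r = 0.9992), a subunit of histone H3 lysine methyltransferase complexes, Nsd1 (r = 0.9908), a histone methyltransferase gene, and Hspa2 (r = 0.9855), a heat shock protein gene of the HSP70 family. Their log2 fold changes were smaller than that of Cldn11, at 0.26 ± 0.12, 0.55 ± 0.14 and 0.52 ± 0.15 (SE), and none passed. For the second Jam2 probe 123 genes reached an r of 0.9, led by Mterf3 (r = 0.9927), Slc10a4l (r = 0.9898) and Tnk2 (r = 0.9847).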

How the data were processed

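The members, the gene lists and the tests were chosen with earlier results of these data known. Biotin-labelled RNA of 6 testis pairs was read on Illumina BeadChips, 1 array each, and GenomeStudio 2010.3 was used, per the submitters' processing notes. Per the file headers, 1 deposited table holds the raw intensity of every probe, averaged over its beads, linear and without normalization. Beside it stand the deposited bead count, the standard error of the bead signal and a detection p-value, per the file headers. The authors' processed table holds the same intensity values times 1 factor per array, from 0.855 to 1.145. No genome build is given in the sources used here, and the array has no counting depth: the number of arrays limits the precision.

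Symbols came from the platform annotation, where 34885 probes have 1 symbol, 18 several and 10378 none, and 34807 were brought up to date by Entrez identifier with the gene table of GRCm38.p6. Background correction, quantile normalization and the log2 transform were done by neqc (limma 3.58.1, R 4.3.3), with an offset of 16 and the background estimated from detection p-values. The fit covered all 19889 probes with a detection p under 0.05 on at least 3 arrays, by the moderated two-sided test of limma, adjusted over all of them by Benjamini-Hochberg. It was tried on simulated data whose arrays were independent, so a shared litter was not covered. A gene is represented by its brightest probe over the 6 arrays, and Jam2 and Tjp3 probes are numbered in that order. Named are every member with every probe, the 3 genes of each junction list with the smallest unadjusted p, Notch1, Hey1 and Ccnd1, and the 3 genes most correlated with each of the 2 members with the smallest unadjusted p over their probes. Cldn5, Cst9, Cbln4, Hsd17b3, Sox8, Amh and Sox9 were added after their values were seen. So were the germ cell, mesonephros, duct and epithelial markers named with values, other than Cdh1. List genes without a probe were not analysed here.

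Equal replicate numbers mark a shared dam in the labels. Littermates deviated together from their group means, with correlations across probes of 0.252, 0.426 and 0.304 in dams 1 to 3, against -0.279 to -0.0138 for other pairs. The fit has no litter term, and the dam as a block is an alternative. With an array left out, the others were normalized again and the same probes were tested.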

Additional observations from a re-analysis of the deposited data

How the results depend on the processing

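The counts of calls and the log2 fold changes of the tested barrier gene probes, of the 3 leading genes of each junction list and of Cldn5, Cst9, Cbln4, Amh, Sox9, Notch1, Hey1 and Ccnd1 were recomputed under 15 alternatives, or 14 for the dimmest tested Jam2 probe, which the filter for all 6 arrays leaves out. List medians, marker sums, correlations and second probes of the other genes were not. Nor were the other cell type markers, except with the dam as a block. Adding the dam as a replicate block gave 157 probes called over all tested probes, against 113, and changed no call among the barrier genes or the junction lists (Cldn11 adjusted p = 0.125). The count over all probes was 175 with an offset of 50, 202 with a trended prior variance and 67 with no filter on dim probes, and 32 to 99 with 1 array left out. The number of barrier gene probes called was 1, always Cldn11, and not 0 without background correction, with the offset of 50, in the authors' processed table, with the trended prior and with array weights, and it was 0 to 1 with 1 array left out. The polarity list had 1 call, Llgl2, under those same 5 settings and with detection required on all 6 arrays, and 0 to 1 with 1 array left out. The adherens junction list had 2 calls (Cdh1 and Nectin2) without background correction, in the authors' table and with the trended prior, and 1 (Cdh1) with the offset of 50 and with array weights. The causes were not tested. The log2 fold change of Tjp1, near 0, turned to 0.035 with median scaling and 0.055 with array weights, and lay between -0.17 and 0.19 with 1 array left out, above 0 without overexpressor 3 or control 1. That of the brightest Jam2 probe lay between -0.31 and 0.15 with 1 array left out, above 0 without overexpressor 2, and that of the dimmest tested one between -0.39 and 0.029, above 0 without control 3. Cldn5 turned to 0.034 with median scaling and lay between -0.15 and 0.066 with 1 array left out. None of the other probes recomputed changed sign under these alternatives. A slide block was not run, since the files name no slide. Cldn3, Ocln and Tjp3 are limited by signal over background.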
